A study of Mus musculus with 7 samples.

Results

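The genes described here are 43 genes that act in mitosis and on the mitotic spindle, a list made of the G2/M cyclins and kinases, the kinetochore, the spindle and the cytokinesis machinery. They were taken by symbol from the 55401 genes of a lung RNA-seq count table, and all 43 were found and passed the filter on low counts, among 17465 genes that did. The comparison was between the lungs of bleomycin-challenged mice (BLM, 4 mice) and of bleomycin-challenged mice treated with hyperbaric oxygen (BLM_HBO, 3 mice), with 1 library per mouse. All mice were C57BL/6 males aged 6 to 8 weeks and weighing 20 to 25 g, and all had been given bleomycin, a DNA-damaging drug whose lung injury is followed by fibrosis. From day 7 the BLM_HBO mice breathed oxygen at 2.5 ATA for 90 min a day in 14 exposures, and all lungs were collected on day 21. The BLM mice sat in the chamber without added pressure according to the sample records but were untreated according to the methods, so whether the controls shared the handling was not settled. No uninjured mice were analysed here, and the lungs were therefore read as injured lung with or without oxygen.

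All 43 genes had a lower fitted level in BLM_HBO lungs, with a median log2 fold change of -0.44 over BLM, while 48.8% of all tested genes lay below 0 and their median was 0.01. The lowest values belonged to Cdc25c and Plk1, both at -0.82 (1.77-fold lower), and the value nearest to 0 belonged to Kif23, at -0.09. The shift was unequal between mice. The median member stood at 50.9% of the BLM mean in BLM_HBO 1, at 66.6% in BLM_HBO 2 and at 99.1% in BLM_HBO 3. By edgeR, 0 of the 43 passed a Benjamini-Hochberg adjusted P of 0.05, and 15 passed an unadjusted P of 0.05, where 5.54% of all tested genes did in the same direction. The members and the gene lists used below were chosen with earlier results of these data known. The shares of all tested genes set beside them are therefore descriptions and not independent support.

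Cells enter mitosis when CDK1, bound to a B-type cyclin, is switched on by the phosphatase CDC25C and amplified by PLK1 and the Aurora kinases. Microtubules of the spindle then attach to kinetochores, the spindle checkpoint holds the anaphase-promoting complex (APC/C) back until every chromosome is attached, and the central spindle guides the cut between the daughter cells. Most of these transcripts are made late in the cell cycle and are scarce in resting cells, so in a bulk tissue they are read mainly from the dividing fraction. In bulk lung tissue, fewer dividing cells and less of each transcript per dividing cell cannot be told apart.

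Late cell cycle genes are known for a shared promoter element, the cell cycle genes homology region (CHR), bound by the MuvB core of the DREAM and B-MYB complexes through LIN54, often with CCAAT boxes bound by NF-Y close by. Promoter windows of 300 bases, 250 before and 50 after the RefSeq start (GRCm38.p6), were available for 34 of the 43 members, with 36 windows since Prc1 and Ect2 had more than 1 start. The letters TTTGAA, searched on both strands, were in 26 of the 36 windows (72.2%) and in 17.9% of the 32851 windows of all genes. The variant TTTAAA was in 25.0% of member windows against 13.2%. CCAAT, again on both strands, was in 27 of the 36 against 37.4%, and a CHR and a CCAAT box were found together in 63.9% against 6.95%. The E2F motif, read on both strands as TTCCCGC, as its form TTCGCGC, as its form TTGCCGC or as its form TTGGCGC, was in 16.7% of member windows and 9.57% of all windows. A list of 50 other mitosis genes had 49 windows, for 43 of its genes. Of these, 53.1% held TTTGAA, 10.2% TTTAAA, 69.4% CCAAT and 30.6% an E2F form. A CHR and a CCAAT box were together in 36.7%. In a list of 35 DNA replication genes the order of TTTGAA and E2F was the other way round. An E2F form was in 65.7% and TTTGAA in 17.1% of the 35 windows that 29 of its genes had. A match is a run of letters and not a shown binding site.

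**Figure D1:**
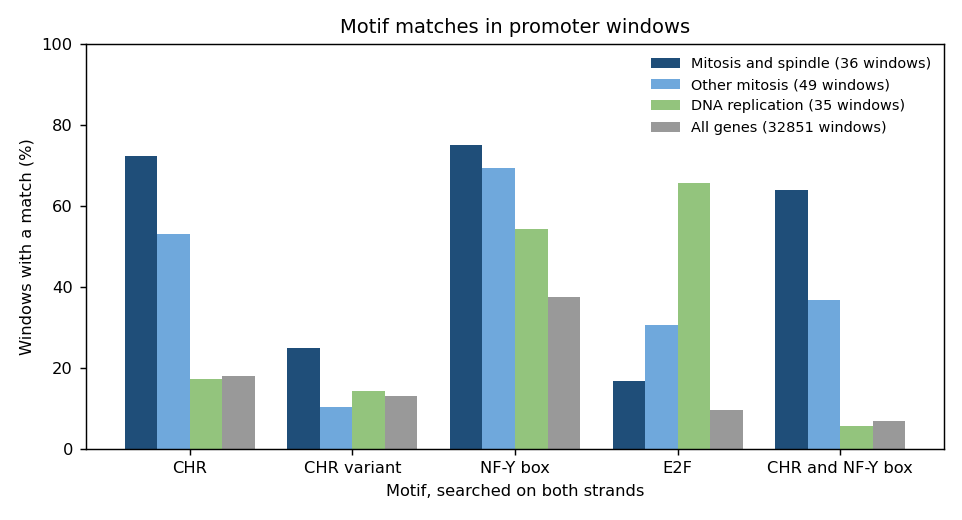
Share of promoter windows with a match (y axis, percent) for each motif (x axis), for the mitosis and spindle genes, other mitosis genes, DNA replication genes and all genes. NF-Y box stands for the CCAAT box. The mitosis and spindle genes had a CHR in 72.2% of windows and the other mitosis genes in 53.1%. The DNA replication genes had one in 17.1%, with 17.9% over all genes.

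The matches lay close to the start. Of the 24 members with a CHR, 21 had one between 30 bases before and 50 bases after the RefSeq start, a range chosen after the positions were seen. Counted by window this was 88.5% of member windows with a CHR and 21.4% of all windows with one. The promoters of the 6 members with a CHR and the lowest P values are printed here to show where the CHR lies and whether a CCAAT box stands beside it, with TTTGAA (or its reverse complement TTCAAA) and CCAAT (or ATTGG) in capitals. Each begins 120 bases before the RefSeq start of the gene and ends at the start, or 30 bases after it where the CHR lies there, and each is read in the direction of the gene in GRCm38.p6.

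Kif4 (chrX:100625945-100626094, plus strand): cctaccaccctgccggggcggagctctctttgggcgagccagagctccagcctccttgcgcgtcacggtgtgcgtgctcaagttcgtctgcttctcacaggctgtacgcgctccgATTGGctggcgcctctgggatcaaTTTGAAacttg
Spc25 (chr2:69206184-69206333, minus strand): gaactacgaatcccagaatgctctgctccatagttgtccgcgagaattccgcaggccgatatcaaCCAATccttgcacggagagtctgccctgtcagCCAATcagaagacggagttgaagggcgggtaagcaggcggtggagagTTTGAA
Kif2c (chr4:117178773-117178892, minus strand): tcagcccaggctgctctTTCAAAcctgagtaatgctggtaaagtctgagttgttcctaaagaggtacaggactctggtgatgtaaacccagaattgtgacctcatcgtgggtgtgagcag
Anln (chr9:22389177-22389326, minus strand): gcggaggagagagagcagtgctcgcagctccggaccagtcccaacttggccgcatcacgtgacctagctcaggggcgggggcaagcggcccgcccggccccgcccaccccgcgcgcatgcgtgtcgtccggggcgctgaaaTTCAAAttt
Racgap1 (chr15:99651627-99651776, minus strand): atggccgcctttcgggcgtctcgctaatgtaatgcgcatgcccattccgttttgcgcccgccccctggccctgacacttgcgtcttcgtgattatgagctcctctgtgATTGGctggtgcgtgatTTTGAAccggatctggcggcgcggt
Cdk1 (chr10:69352913-69353032, minus strand): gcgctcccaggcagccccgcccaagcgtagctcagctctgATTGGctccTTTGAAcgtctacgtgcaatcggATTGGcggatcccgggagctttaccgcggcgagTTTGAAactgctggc

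In Kif4 and Racgap1 the CHR follows a reversed CCAAT box across the start, and in Spc25 it follows 2 forward CCAAT boxes. Cdk1 holds 2 CHR matches, each downstream of a reversed CCAAT box. Kif2c and Anln show a reversed CHR and no CCAAT box in the stretch printed, and in Kif2c the CHR lies 103 bases before the start, outside the range given above. Anln has a further, forward CHR match that begins at base 29 after the start and runs past the stretch printed. The RefSeq start of Kif2c lies 3867 bases inside the span that the count table gives the gene, and that of Kif4 lies 328 bases inside. The windows of Kif2c and Kif4 therefore need not hold the start used in these lungs. The CHR did not separate the members by median fold change. The 24 with a match had a median log2 fold change of -0.45 and the 10 without had -0.44. At an unadjusted P below 0.05, 10 of the 24 and 2 of the 10 were lower, where 5.54% of all tested genes were. Among 43 other mitosis genes with a window, the 25 with a CHR had a median of -0.31 and the 18 without had -0.10. Of these 25, 96.0% were lower, and of the 18, 61.1%. Among tested genes outside these lists, the 1792 with a CHR had a median of 0.03 and the 10402 without had 0.00. There 45.5% and 49.3% were lower. No test was run on these medians or shares.

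Sequencing depth was similar in 6 mice, with 18157161 to 20632391 counts, and higher in BLM_HBO 3, with 26365969. Read counts were scaled to counts per 1000000 (CPM) of the normalized library. The 43 members together held 12028 to 15136 counts in the BLM mice and 7282, 10294 and 20155 in BLM_HBO 1, 2 and 3. The lowest single count was 27, for Cdc25c in BLM_HBO 1. Scaled, the summed level was 765, 678, 691 and 797 CPM in BLM 1 to 4. It was 388, 493 and 756 CPM in BLM_HBO 1 to 3. The first 2 of these lie below every BLM mouse and the last lies among them.

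**Figure D2:**
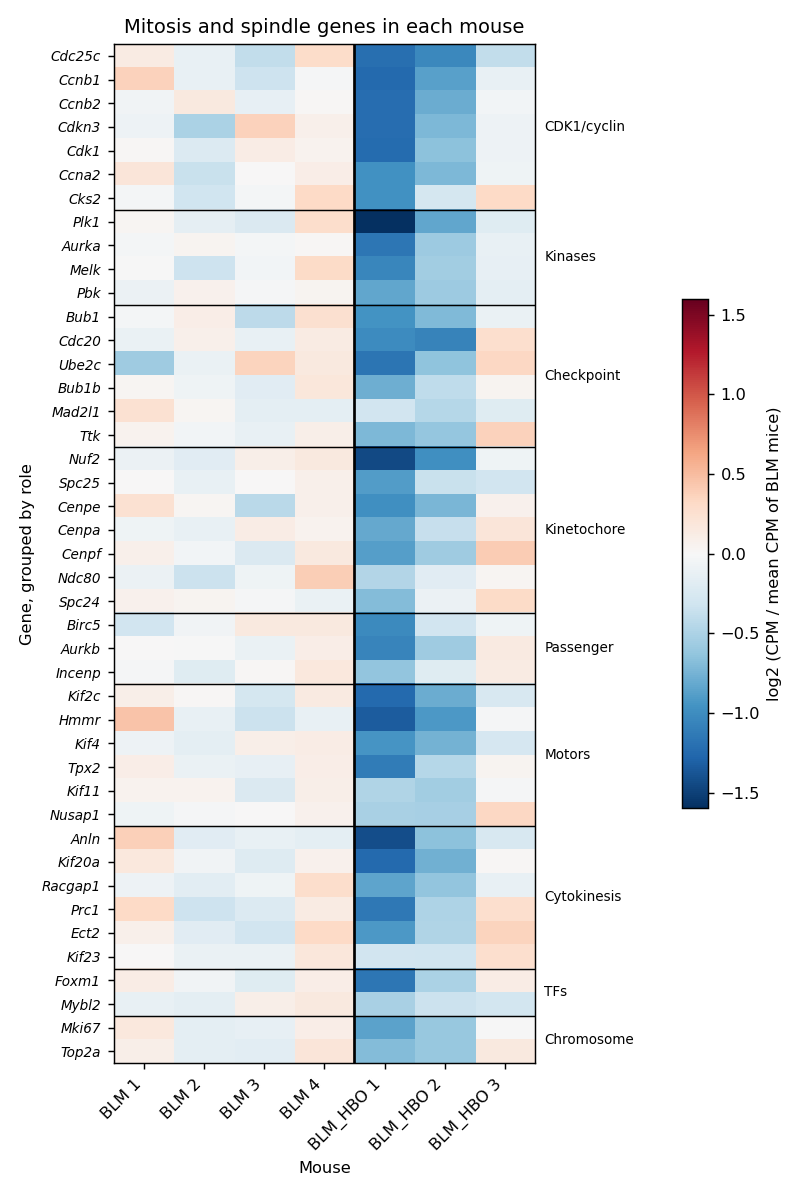
Level of each of the 43 genes (rows, grouped by role) in each of the 7 mice (columns), as log2 of CPM over the mean CPM of the BLM mice. BLM_HBO 1 is below 0 in every row, with a median of 50.9% of the BLM mean, and BLM_HBO 3 has a median of 99.1%.

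BLM_HBO 1 lay below the lowest BLM mouse for all 43 members, where 25.7% of all tested genes did. BLM_HBO 2 did so for 40 members, against 15.7% of all tested genes. BLM_HBO 3 did so for 8 members, against 24.8%. It lay above the highest BLM mouse for 10, but the share of all tested genes above that mouse was not counted. Whether 10 is unusual can therefore not be read from it. The order BLM_HBO 1, then 2, then 3 from low to high held for 38 of the 43. The SD of the CPM was larger in BLM_HBO than in BLM for 39 of the 43. Over the 7 mice, each member's log2 CPM was compared with the mean of the other members. Pearson's r ran from 0.594 (Mad2l1) to 0.987 (Aurkb) with a median of 0.927. These points share 7 libraries, and the value is a description of how alike the members ran.

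By edgeR's quasi-likelihood test, 15 of the 43 were lower at an unadjusted P below 0.05, where 5.54% of all tested genes were. With a fold change above 1.5 as well, 8 were lower, where 2.89% of all tested genes were. These were Kif4, Kif2c, Anln, Cdc25c, Ccnb2, Nuf2, Ccnb1 and Plk1. None were higher, where 3.4% of all tested genes were. At an adjusted P below 0.05 edgeR called 0 of the 43 and 0 of all genes, DESeq2 called 0 of the 43 and 0.734% of all genes, and limma called 0 of both. At an unadjusted P below 0.05 DESeq2 had 16 of the 43 lower (6.09% of all genes) and limma 18 (6.17%). The lowest adjusted P of a member was 0.423 by edgeR and 0.163 by DESeq2, both for Kif4, and the 15 past the unadjusted limit had edgeR adjusted P values of 0.423 to 0.465. All 3 BLM_HBO mice lay below all 4 BLM mice for 8 members, where this held for 4.72% of all tested genes. These were Kif4, Spc25, Anln, Cdc25c, Pbk, Aurka, Mad2l1 and Mybl2.

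The counts depended on which mice were in the fit. Without BLM_HBO 3, 36 members were lower at an unadjusted P below 0.05 (3.39% of all tested genes), 32 also passed the fold limit (2.07%), and the median log2 fold change was -0.78. Even then 0 passed the adjusted limit by edgeR (0.0112% of all tested genes did), with a lowest adjusted P of 0.185 for Cdc20. Without BLM_HBO 1 the counts were 1 (2.89%) and 0 (1.76%) and the median was -0.28. Without BLM_HBO 2 they were 3 (8.46%) and 1 (5.41%) and the median was -0.40. Leaving out a BLM mouse also moved them, to 5 (3.43%) and 2 (1.76%) without BLM 1 and to 3 (5.4%) and 1 (3.11%) without BLM 4. Groups that do not overlap are more frequent with fewer mice, and without BLM_HBO 3 this held for 40 members against 7.47% of all tested genes. It held for 8 without BLM_HBO 1 (7.44%) and for 8 without BLM_HBO 2 (13.2%). Without BLM 1, 2, 3 and 4 in turn it held for 9 (6.37%), 12 (6.12%), 13 (7.86%) and 8 (8.42%). In each of the 7 fits that left out 1 mouse, 38 of the 43 were below 0, where 30.3% of all tested genes were.

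**Figure D3:**
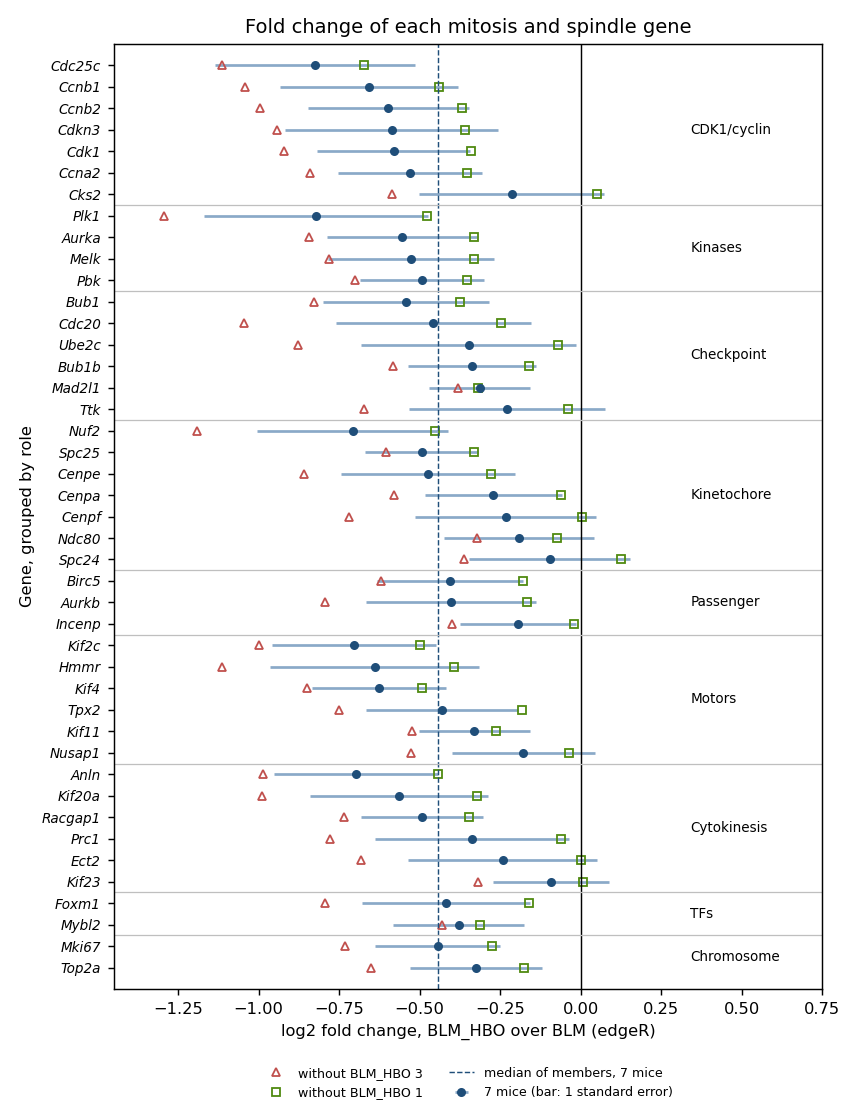
Log2 fold change of BLM_HBO over BLM by edgeR (x axis) for each gene (y axis, grouped by role). Filled circles with bars give the value and 1 standard error from 7 mice, triangles the value without BLM_HBO 3 and squares the value without BLM_HBO 1, and the dashed line is the median of -0.44. All 43 circles lie below 0, and the triangles lie further from 0 than the squares.

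The CDK1 and cyclin switch had a median log2 fold change of -0.59. Of its 7 genes, 5 were lower at an unadjusted P below 0.05, where 5.54% of all tested genes were. Differences between this role and those below were not tested. Cdc25c, which encodes the phosphatase that activates CDK1, had 3.63, 3.04, 2.53 and 4.05 CPM in BLM 1 to 4 and 1.44, 1.63 and 2.51 CPM in BLM_HBO 1 to 3. All BLM_HBO mice were lower than all BLM mice, BLM_HBO 3 only just, and the log2 fold change was -0.82 ± 0.31 (SE), past the unadjusted limit. Ccnb1, cyclin B1 and partner of CDK1, had 18.7, 13.4, 11.5 and 14.3 CPM in BLM and 6.12, 7.94 and 13.3 CPM in BLM_HBO. The values of the groups overlapped through BLM_HBO 3, and the log2 fold change was -0.66 ± 0.28. Ccnb2, cyclin B2, had 17.6, 20.4, 16.7 and 18.6 CPM against 7.88, 10.5 and 17.8 CPM, with a log2 fold change of -0.60 ± 0.25. Here again 2 of the BLM_HBO mice were well under the BLM range and the third was inside it. Cdk1 itself had 24.1, 20.6, 26.0 and 24.7 CPM against 10.1, 15.1 and 22.5 CPM (log2 fold change -0.58 ± 0.24). Ccna2, cyclin A2, which acts from S phase into early mitosis, had 29.0, 19.7, 25.3 and 27.2 CPM against 12.9, 15.4 and 24.1 CPM (log2 fold change -0.53 ± 0.22). All 5 of these genes passed the unadjusted limit, and in the last 4 BLM_HBO 3 kept the groups from separating. Cdkn3, a phosphatase that acts on CDKs, and Cks2, a small CDK-binding subunit, did not pass the limit, with log2 fold changes of -0.59 ± 0.33 and -0.21 ± 0.29.

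Among the mitotic kinases 3 of 4 passed the unadjusted limit (5.54% of all tested genes were lower at it), and the median log2 fold change was -0.54. Plk1, the polo-like kinase that promotes mitotic entry and spindle assembly, had 13.4, 11.9, 11.2 and 15.8 CPM in BLM and 3.30, 7.37 and 11.4 CPM in BLM_HBO. Its level in BLM_HBO 1 was 25.2% of the BLM mean, the lowest of any member in any mouse, and its log2 fold change was -0.82 ± 0.35. Aurka, the Aurora kinase of the spindle poles, had 11.6, 12.1, 11.5 and 11.9 CPM in BLM, a narrow range, and 5.27, 7.85 and 10.8 CPM in BLM_HBO. The groups did not overlap (log2 fold change -0.56 ± 0.23). Pbk, a mitotic serine/threonine kinase, had 10.4, 11.7, 11.0 and 11.5 CPM against 6.28, 7.47 and 9.97 CPM and did not overlap either (log2 fold change -0.49 ± 0.19). Melk, a kinase raised in dividing cells, was at -0.53 ± 0.26 and missed the limit.

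The spindle motors and microtubule proteins had a median log2 fold change of -0.53. Kif4, a chromokinesin that carries chromosomes and organizes the central spindle, had the lowest P of the 43, with 9.64, 9.13, 10.8 and 11.1 CPM in BLM and 5.27, 6.03 and 8.40 CPM in BLM_HBO. The groups did not overlap, and the log2 fold change was -0.63 ± 0.21. Kif2c, a kinesin that depolymerizes microtubules at centromeres, had 9.09, 8.62, 7.03 and 9.43 CPM against 3.62, 4.93 and 7.12 CPM. BLM_HBO 3 lay just above the lowest BLM mouse, and the log2 fold change was -0.70 ± 0.25. The other 4 genes of this group missed the limit. They were Hmmr, a spindle-associated hyaluronan-binding protein (-0.64 ± 0.32), Tpx2, the activator of Aurora A on the spindle (-0.43 ± 0.23), Kif11, the motor that separates the spindle poles (-0.33 ± 0.17), and the microtubule-bundling gene Nusap1 (-0.18 ± 0.22).

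In the central spindle and cytokinesis group the median log2 fold change was -0.41, and Anln and Racgap1 passed the unadjusted limit. Anln encodes anillin, a scaffold of the contractile ring, and had 38.2, 25.9, 27.2 and 26.3 CPM in BLM and 11.0, 18.7 and 24.5 CPM in BLM_HBO. BLM 1 stood above the other BLM mice, and the groups did not overlap (log2 fold change -0.70 ± 0.26). Without BLM 1 the log2 fold change of Anln was -0.55 and missed the unadjusted limit. Racgap1, a subunit of centralspindlin, had 28.9, 27.1, 29.1 and 37.0 CPM against 17.0, 19.8 and 28.2 CPM (log2 fold change -0.49 ± 0.19). Its partner in centralspindlin, Kif23, had the smallest change of all members (-0.09 ± 0.18), so the subunits of 1 complex stood at different places in the list. The difference between them was not tested. The central spindle kinesin Kif20a was at -0.56 ± 0.28, the microtubule crosslinker Prc1 at -0.34 ± 0.30 and Ect2, the activator of RhoA at the division plane, at -0.24 ± 0.29.

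The centromere and kinetochore group was nearer to 0, with a median log2 fold change of -0.27. At the unadjusted limit 2 of its 7 genes were lower, where 5.54% of all tested genes were. Both belong to the NDC80 complex, which holds the microtubule end. Nuf2 had 11.2, 10.6, 12.8 and 13.3 CPM in BLM and 4.42, 6.08 and 11.4 CPM in BLM_HBO (log2 fold change -0.71 ± 0.30), and the third BLM_HBO mouse lay within the BLM range. Spc25 had 14.4, 13.2, 14.4 and 15.2 CPM against 7.72, 11.2 and 11.6 CPM, with no overlap (log2 fold change -0.49 ± 0.18). The other subunits of the same complex, Ndc80 and Spc24, were at -0.19 ± 0.23 and -0.10 ± 0.25, within 1 standard error of 0. Of the rest, the kinetochore motor Cenpe was at -0.47 ± 0.27, the centromeric histone Cenpa at -0.27 ± 0.21 and the kinetochore protein Cenpf at -0.23 ± 0.28.

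None of the 6 spindle checkpoint and APC/C activator genes passed the unadjusted limit, and their median log2 fold change was -0.34. Cdc20, the activator that the checkpoint blocks, had 20.8, 23.6, 20.5 and 24.5 CPM in BLM and 11.1, 10.6 and 26.9 CPM in BLM_HBO. It stood at about the same low level in 2 treated mice and above the BLM range in the other, and its log2 fold change was -0.46 ± 0.30. Mad2l1, a checkpoint protein that binds CDC20, had 18.5, 16.0, 14.0 and 14.0 CPM against 12.7, 11.4 and 13.6 CPM. These groups did not overlap but lay close together (log2 fold change -0.31 ± 0.16). The checkpoint kinases Bub1 and Ttk were at -0.54 ± 0.26 and -0.23 ± 0.30, the BUB1-related Bub1b at -0.34 ± 0.20 and the E2 enzyme of the APC/C, Ube2c, at -0.35 ± 0.33.

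The chromosomal passenger complex, which corrects wrong attachments, had no gene of the 43 past the limit. Its genes among the 43 were Birc5 (survivin, -0.41 ± 0.23), the kinase Aurkb (-0.40 ± 0.26) and the scaffold Incenp (-0.19 ± 0.18). The transcription factors that drive late cell cycle genes also missed it, with a median log2 fold change of -0.40. Mybl2, B-MYB, had 5.56, 5.41, 6.48 and 6.74 CPM in BLM and 4.21, 4.79 and 4.95 CPM in BLM_HBO, without overlap (log2 fold change -0.38 ± 0.20). Foxm1 had 18.1, 16.1, 14.7 and 18.01 CPM against 7.51, 11.8 and 18.1 CPM (log2 fold change -0.42 ± 0.26), and BLM_HBO 3 was level with the highest BLM mouse.

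Mki67, which encodes the proliferation marker Ki-67, and Top2a, the topoisomerase that untangles chromosomes, had the largest CPM of the list. Mki67 had 77.5, 61.7, 62.8 and 74.1 CPM in BLM and 38.01, 45.2 and 68.8 CPM in BLM_HBO (log2 fold change -0.44 ± 0.19, past the unadjusted limit). Top2a had 63.5, 53.5, 53.0 and 68.3 CPM against 37.0, 39.2 and 66.4 CPM (log2 fold change -0.33 ± 0.20). In both, the first 2 BLM_HBO mice were under all BLM mice and the third was inside their range. Divided by the exonic length in the count table, the mean level in BLM was highest for Cks2, at 15.4 CPM per kb, followed by Ccnb2 and Cdc20 at 12.0 CPM per kb. The level of Mki67 on that scale was 6.86 CPM per kb, and Cdc25c had the lowest, 0.674 CPM per kb.

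The same contrast was read in genes of neighbouring cell cycle steps. Of 50 other mitosis genes, 41 were lower, where 48.8% of all tested genes were, and the median log2 fold change was -0.29. At an unadjusted P below 0.05, 5 were lower, where 5.54% of all tested genes were. The 3 with the lowest P were Trip13, a remodeller of checkpoint proteins (-0.69 ± 0.25), Cdca3, a mitotic entry factor (-0.53 ± 0.21), and Depdc1a (-0.79 ± 0.33). Kif14 and Arhgap11a, named after their values were seen, were the others. Pttg1, securin, was the gene with the lowest P on the other side and was at 0.28 ± 0.19. BLM_HBO 1 lay below the lowest BLM mouse for 41 of these 50 genes, where 25.7% of all tested genes did. BLM_HBO 2 did so for 31, against 15.7%, and BLM_HBO 3 for 6, against 24.8%. This order of mice was like that of the members.

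The 35 DNA replication and S-phase genes were nearer to 0, with a median log2 fold change of -0.08. Of these, 24 were lower and 11 higher, where 48.8% of all tested genes were lower. Only Rrm1 of this list passed the unadjusted limit, where 5.54% of all tested genes were lower at it. Rrm1, the large subunit of ribonucleotide reductase, had 76.6, 67.6, 65.6 and 69.1 CPM in BLM and 50.9, 57.1 and 52.7 CPM in BLM_HBO (log2 fold change -0.38 ± 0.10, edgeR adjusted P = 0.423). Next were the nucleotide synthesis genes Tyms (-0.36 ± 0.17) and Rrm2 (-0.36 ± 0.17), and the primase gene Prim1 was on the other side at 0.26 ± 0.20. The summed level of the list was 710, 690, 699 and 743 CPM in BLM 1 to 4 and 671, 648 and 682 CPM in BLM_HBO 1 to 3. All BLM_HBO sums lay below every BLM sum, and they lay closer together than for the mitosis genes. Read by gene, all BLM_HBO mice lay below all BLM mice for 5 of the 35, where this held for 4.72% of all tested genes. The ratio of summed mitosis to summed replication level was 1.08, 0.983, 0.989 and 1.07 in BLM and 0.578, 0.761 and 1.11 in BLM_HBO. The difference between the lists was not tested.

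The APC/C list held 15 genes, core subunits with the co-activator Fzr1, which are expressed through the cycle. Of these, 12 were lower, where 48.8% of all tested genes were. Anapc10 was the 1 past the unadjusted limit (-0.38 ± 0.15), where 5.54% of all tested genes were lower. Next were Anapc15 (-0.41 ± 0.20) and Cdc16 (-0.17 ± 0.11), with Anapc13 at 0.17 ± 0.16. The median log2 fold change of the list was -0.10. Its summed level was 966 to 1007 CPM in BLM and 944, 930 and 964 CPM in BLM_HBO 1 to 3. All BLM_HBO sums thus lay below every BLM sum. Among 7 G1 cyclin and kinase genes with Myc, the median was -0.03. Myc, the growth-promoting transcription factor, had 39.3, 30.4, 42.9 and 26.5 CPM in BLM and 19.1, 24.6 and 14.3 CPM in BLM_HBO (log2 fold change -0.85 ± 0.22, edgeR adjusted P = 0.423, DESeq2 adjusted P = 0.0448). All BLM_HBO mice were below all BLM mice, and here BLM_HBO 3 was the lowest, unlike its place in the mitosis genes. Ccnd3 and Cdk4 were at 0.11 ± 0.15 and -0.07 ± 0.10.

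The 7 CDK inhibitor genes had a median log2 fold change of -0.28, and 2 passed the unadjusted limit (5.54% of all tested genes were lower at it). Cdkn2b (p15) was at -0.42 ± 0.11 and Cdkn2d (p19) at -0.38 ± 0.11, both lower in BLM_HBO, while Cdkn1b (p27) was at 0.25 ± 0.13. Of 10 pocket protein and DREAM complex genes, Lin52, a MuvB subunit, was higher, with 16.8, 15.2, 15.8 and 15.8 CPM in BLM and 21.0, 18.7 and 20.8 CPM in BLM_HBO (log2 fold change 0.34 ± 0.12). The list had a median of -0.0018, with Rb1 at -0.24 ± 0.12 and Tfdp1 at -0.12 ± 0.11.

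**Figure D4:**
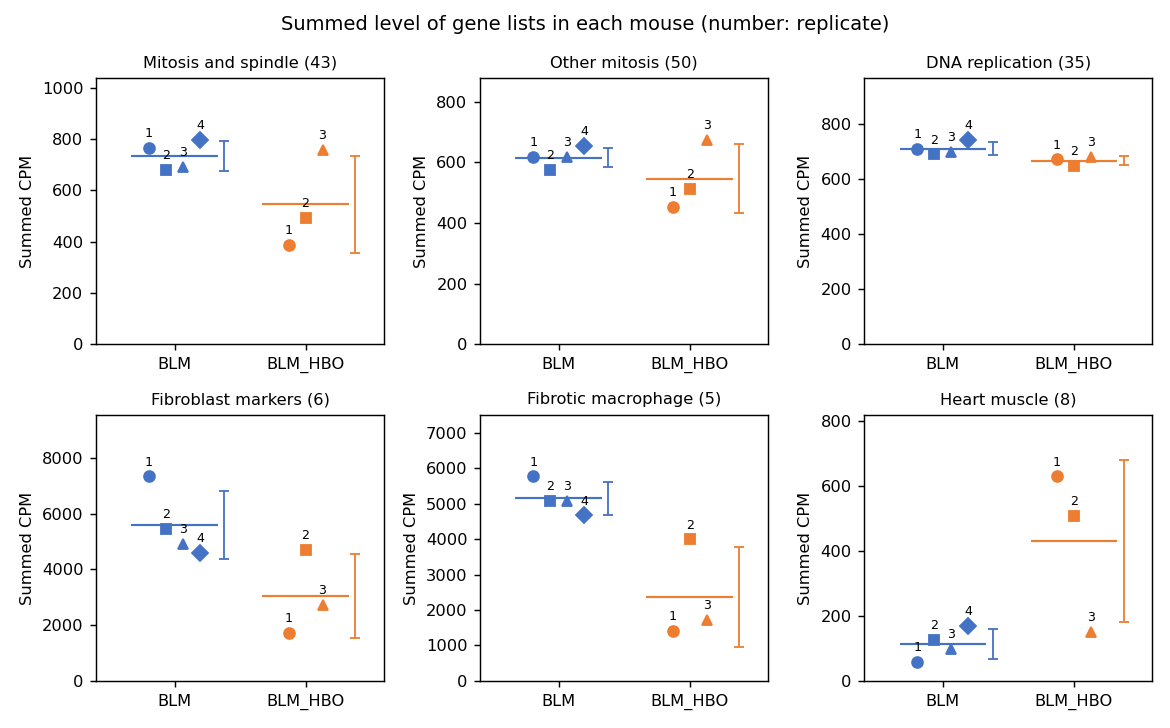
Summed CPM (y axis) of 6 gene lists in each mouse, with the replicate number over each point, the group mean as a line and the SD as a bar at its side. For the mitosis and spindle genes BLM_HBO 3 (756 CPM) lies among the BLM mice, while for the fibroblast and fibrotic macrophage lists BLM_HBO 2 is the treated mouse nearest to them.

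The cells that could carry these transcripts were read from marker lists. No listed marker was at 0 counts in any mouse, and the alveolar type 2 list that marks lung summed to 8745 to 27488 CPM. All 6 fibroblast markers were lower at an unadjusted P below 0.05, where 5.54% of all tested genes were. Their summed level was 4598 to 7333 CPM in BLM and 1723, 4703 and 2734 CPM in BLM_HBO 1, 2 and 3. Col1a1, a fibrillar collagen gene, had a log2 fold change of -1.20. Of 5 fibrotic macrophage markers 2 passed, with 4673 to 5771 CPM in BLM and 1416, 3992 and 1721 CPM in BLM_HBO. Of 7 monocyte and macrophage markers 4 passed, with 1030 to 1514 CPM against 657, 1034 and 643 CPM. For these lists BLM_HBO 2 was the treated mouse nearest to BLM, whereas for the mitosis genes it was BLM_HBO 3. BLM_HBO 1 was low in both.

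Heart muscle, B cell and NK cell markers were higher in BLM_HBO at the unadjusted limit, and the heart muscle sum ran from BLM_HBO 1 down to BLM_HBO 3, the reverse of the members. Of 8 heart muscle markers, 7 were higher at an unadjusted P below 0.05, where 5.11% of all tested genes were. Their sum was 58.9 to 169 CPM in BLM and 629, 508 and 150 CPM in BLM_HBO 1, 2 and 3. The first 2 of these lay above every BLM mouse and the third inside the BLM range. Among the BLM mice, BLM 4 had the highest sum both for heart muscle (169 CPM) and for the members (797 CPM). A link between these sums was not tested. T cell markers summed to 28.1 to 49.6 CPM in BLM and 73.9, 44.2 and 31.8 CPM in BLM_HBO, with 0 of 6 past the limit. Their sum ran in the same order over the treated mice as that of heart muscle. All 5 B cell markers and 4 of 5 NK cell markers were higher at an unadjusted P below 0.05, with BLM_HBO 1 the highest mouse in both sums, at 210.2 and 90.2 CPM. Neutrophil markers summed to 142 to 210.0 CPM in BLM and 469, 87.4 and 102 CPM in BLM_HBO, with 0 of 5 tested past the limit. Of the remaining lists, 2 of 4 mesothelial markers and 2 of 5 alveolar macrophage markers were lower at an unadjusted P below 0.05. So was 1 of 5 plasma cell and 1 of 5 alveolar type 1 markers, where 5.54% of all tested genes were. Club cell markers were higher in 2 of 3, alveolar type 2 markers in 1 of 6 and alveolar macrophage markers in 1 of 5, with 0 of 5 endothelial and 0 of 6 erythroid markers past the limit. The sum of the replication genes in the same libraries was 671 CPM in BLM_HBO 1 and 682 CPM in BLM_HBO 3. The part of these cell types in the mitosis or the replication result was not tested.

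Outside all these lists, the 10 genes whose log2 CPM followed the mean of the members most closely over the 7 mice were Sema5b, Armc6, Ypel2, Spdl1, Cul7, Slc35b2, Tubg1, Gm21451, Morc4 and Faap24, with Pearson's r from 0.949 to 0.987. Spdl1, which recruits dynein to kinetochores, had 5.67, 5.02, 5.33 and 6.53 CPM in BLM and 2.50, 4.02 and 5.21 CPM in BLM_HBO. Tubg1, the gamma-tubulin of spindle poles, had 23.8, 24.0, 23.1 and 26.7 CPM against 14.5, 20.7 and 24.4 CPM. Both repeated the order of the treated mice seen in the members, by which they were chosen, and no P is attached to the likeness.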

How the data were processed

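Total RNA of lung tissue was extracted with Trizol, and libraries were made with a NEBNext Ultra kit. The authors trimmed the reads, mapped them to GRCm38 with HISAT2 2.2.0 and counted them per gene with featureCounts (2.2.0 per the labels) without regard to strand, leaving out multi-mapped and multi-overlapping reads. The deposited values are raw read counts. All columns of values belonged to a mouse. Symbols came from GENCODE vM21 (55141 of 55401 genes). The groups and replicate numbers came from the sample titles. Where nothing says more, P values measure the spread between these mice.

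Low counts were removed by filterByExpr (at least 10 counts, total 15), and the rest was normalized by TMM (factors 0.964 to 1.036) and tested with edgeR 4.0.16 quasi-likelihood under R 4.3.3, with Benjamini-Hochberg adjustment. DESeq2 1.42.0 and limma 3.58.1 were alternatives, with other factors, filters, a replicate block and each mouse left out. Log2 CPM used a prior count of 2. The limits were an unadjusted P below 0.05 and a fold change above 1.5. The steps were tested on simulated data. Members, roles and lists were chosen with earlier results of these data known. Named genes were all members, from each pathway list the 3 with the lowest P and the 1 with the lowest P on the other side of the list median, 10 genes most like the members, up to 6 promoters with a CHR in order of P outside 1 chromosome, and markers where their list is discussed. Copies carrying a member's symbol with the ending -ps were found for Ccnb1, Ccnb2 and Kif4, with at most 5, 65 and 0 counts in a mouse. Copies under other names were not looked for. There were 6 members (Ccna2, Cdc20, Kif20a, Kif4, Prc1 and Nusap1) that overlap a tested gene on the other strand, where shared reads were left out.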

Additional observations from a re-analysis of the deposited data

Results flagged for a closer look

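Each group of 4 BLM values was read for a mouse far from the others (Dixon's ratio above its 95% critical value), over 45 such groups, of which 2 passed, and chance alone gives about 1 in 20. Log2 CPM of Kif11 was 3.85 in BLM 3, the lowest, with the other BLM mice at 4.13 to 4.18. Log2 CPM of Anln was 5.26 in BLM 1, the highest, with the other BLM mice at 4.70 to 4.77.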

How the results depend on the processing

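The median log2 fold change of the members was below 0 in every alternative, and left-out mice gave -0.78 to -0.28. Members past both limits numbered 0 at a fold change above 2 and 0 to 32 with a mouse left out. At an unadjusted P below 0.05 they numbered 1 to 36. Members without overlap of the groups numbered 8 to 40 with a mouse left out, 13 without BLM 3 (7.86% of all tested genes) and 40 without BLM_HBO 3 (7.47%). Same-numbered mice did not deviate together (correlations -0.01, -0.07 and 0.16), so the numbers were not read as pairs. With a replicate block 7 members were lower at an unadjusted P of 0.05, where 5.64% of all tested genes were. The APC/C median was -0.071 with upper-quartile factors and -0.097 to -0.070 with a mouse left out (-0.071 without BLM 1), the S-phase median -0.12 to -0.029 (without BLM 2 and BLM 4) and the G1 median -0.080 to 0.063 (without BLM_HBO 2 and BLM_HBO 1). Of 645 single-member values under alternatives, 541 kept direction and side of the limit, 67 lost the limit, 31 gained it (21 of these without BLM_HBO 3) and 6 turned sign. These were Cenpf (-0.72 to 0.0031 with a mouse left out), Spc24 (-0.36 to 0.12), Ect2 (-0.68 to 0.00092) and Cks2 (-0.58 to 0.051), each above 0 without BLM_HBO 1, and Kif23 (-0.32 to 0.0088), above 0 without BLM_HBO 2 and, at 0.0062, without BLM_HBO 1. The lowest of each came without BLM_HBO 3. The cause was not tested. With 3 treated mice that differ this much, an adjusted P above 0.05 does not show that the groups are alike.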
